A study of Rattus norvegicus with 6 samples.

Results

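Bulk mRNA of primary rat microglia was used to describe 7 secreted factors, the chemokines Cxcl1, Cxcl2, Cxcl3, Cxcl6 and Ccl20 and the colony-stimulating factors Csf3 and Csf2. They were taken by gene name from the 6 deposited count tables, in which all 7 were found among 23139 listed genes. All cells were microglia shaken off mixed cultures of cortex from Wistar rats at postnatal day 1 and purified with beads against CD11b/c, a surface protein of myeloid cells. Every library was stimulated with 100 ng/ml lipopolysaccharide (LPS), which is shed from the wall of Gram-negative bacteria, and 3 libraries received the solvent DMSO (LPS) while 3 received 50 µM siponimod, a modulator of sphingosine-1-phosphate receptors (LPS/siponimod). Cells without LPS and cells with siponimod alone are not analysed here, so that no value states how far LPS itself moved a gene. The number of pups behind each culture is not given in the sources used here, and the duration of stimulation is not stated separately for the sequenced libraries.

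Chemokines of the CXC family that carry the glutamate-leucine-arginine motif, to which Cxcl1, Cxcl2, Cxcl3 and Cxcl6 belong, bind the receptor CXCR2 and draw neutrophils into tissue. Ccl20 is the ligand of CCR6, a receptor found on Th17 cells and some B and dendritic cells. Csf3 (G-CSF) drives the formation and release of neutrophils, and Csf2 (GM-CSF) supports neutrophils, monocytes and microglia. In macrophages and glia, Toll-like receptor 4, interleukin-1 and interleukin-17 induce these genes through NF-kB and its cofactors, and proteins that bind their messages limit how long the messages persist. In the RefSeq gene table, Cxcl2 and Cxcl1 are direct neighbours, and Cxcl3 follows after a single uncharacterized gene on the same chromosome 14, which also holds Cxcl6. Cxcl1, Cxcl2 and Cxcl3 are similar in sequence, and how reads that match several genes were counted is not stated, so that the division of reads between these 3 is uncertain.

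The promoters of 5 of the 7 genes (Cxcl1, Cxcl2, Cxcl6, Ccl20 and Csf2) were found in the RefSeq table of build GRCr8, another build than the one to which the reads were mapped, and they are shown because the genes moved together across libraries. Promoters of Cxcl3 and Csf3 were not analysed here. Searched on both strands, the NF-kB consensus occurred in 4 of the 5 windows of 300 bases, against 4.18% of 33469 promoters of this length. The exact letters GGGAATTTCC, also a match to that consensus, were read from Cxcl1, at bases -84 to -75 from the annotated start. Their match in Cxcl1 was thus fixed in advance. They also stood at bases -88 to -79 of Cxcl6, and occurred in 0.0747% of all promoters. The letters ATAAAA, searched on the strand of the gene, were found in Cxcl1, Cxcl2 and Cxcl6 (12.1% of all promoters), TTGCNNAA, searched on both strands as a C/EBP motif, in Cxcl2 and Cxcl6 (10.6%), and TGANTCA, an AP-1 motif, in none of the 5 (7.33%). The NF-kB matches in Cxcl1 and Cxcl6 include an overlapping match on the other strand. A match describes the letters and is not evidence of binding. The 120 bases before each start are given 5′ to 3′ on the strand of the gene, with matches to the NF-kB consensus in capitals, for Cxcl1 at chr14:17479322-17479441 (minus strand), Cxcl2 at chr14:17467256-17467375 (minus), Cxcl6 at chr14:17596418-17596537 (minus), Ccl20 at chr9:91837039-91837158 (plus) and Csf2 at chr10:38889674-38889793 (minus), the last without a match.
Cxcl1: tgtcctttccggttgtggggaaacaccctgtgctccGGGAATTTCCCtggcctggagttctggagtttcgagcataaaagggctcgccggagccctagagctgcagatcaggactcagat
Cxcl2: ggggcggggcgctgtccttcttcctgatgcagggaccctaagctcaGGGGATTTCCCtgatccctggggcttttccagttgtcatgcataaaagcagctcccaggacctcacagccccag
Cxcl6: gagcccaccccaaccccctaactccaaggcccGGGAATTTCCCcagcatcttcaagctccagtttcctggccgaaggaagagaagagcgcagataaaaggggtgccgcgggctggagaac
Ccl20: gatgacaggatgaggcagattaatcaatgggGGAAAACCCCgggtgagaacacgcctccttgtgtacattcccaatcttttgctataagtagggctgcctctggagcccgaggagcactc
Csf2: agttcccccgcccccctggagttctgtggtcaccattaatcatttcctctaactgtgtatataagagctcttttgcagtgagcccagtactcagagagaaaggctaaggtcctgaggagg

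Depth was 39484979, 38301365 and 38080379 counts in LPS replicates 1, 2 and 3 and 46643859, 43336006 and 38857441 counts in LPS/siponimod replicates 1, 2 and 3. The 7 genes together held 0.0467%, 0.0102% and 0.289% of all counts in LPS replicates 1, 2 and 3, and 0.659%, 0.298% and 0.796% in LPS/siponimod replicates 1, 2 and 3. LPS replicate 3 stood apart from the other LPS libraries. Of 11977 genes tested, 264 (2.2%) were at least 4-fold higher in it than in both other LPS libraries, whereas this number was 31 (0.259%) for LPS replicate 1 and 7 (0.0584%) for LPS replicate 2. In LPS/siponimod replicate 3, 163 genes (1.36%) stood above the other LPS/siponimod libraries in the same way, and 107 genes were common to both, which is 40.5% of the genes high in LPS replicate 3 and 65.6% of those high in LPS/siponimod replicate 3. The 7 genes are therefore given by library, and with and without LPS replicate 3, and for other named genes of the lists the value without it is given where it changed a call.

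The labelled cell type was checked against its markers. All 15 markers of microglia and macrophages were detected, with a summed level of 12010, 9759 and 6650 CPM (read counts scaled to a common library size) in the LPS and 5145, 6458 and 3720 CPM in the LPS/siponimod libraries, and Csf1r, the receptor for CSF1 and IL-34, was the most abundant (2107 ± 1079 against 811 ± 437 CPM, SD, n = 3 each). Csf1r did not pass the test with all 6 libraries (log2 FC -1.38, adjusted p = 0.106), but was called lower with the replicate number as a block (-1.33, adjusted p = 0.0375) and without LPS replicate 3 (-1.73, adjusted p = 0.0374, all by the edgeR quasi-likelihood test). Among these 15, Itgam, Aif1 and Cx3cr1 fell (log2 FC -0.87, -1.88 and -3.65, edgeR quasi-likelihood adjusted p = 0.0112, 0.0212 and 0.0392) and none rose, against 25.3% of all genes tested that were called in either direction. Without LPS replicate 3, 7 of the 15 fell, and with the replicate block 8 fell and 1 rose, where 30.3% and 34% of all genes tested were called in either direction. Of 14 neutrophil markers, 8 had no count in any library, among them Mpo, Elane, Ltf and Retnlg, and the summed level of the list lay between 0.646 and 3.44 CPM. S100a8, its most abundant gene, fell from 2.13 ± 0.606 to 0.178 ± 0.136 CPM (log2 FC -3.57, quasi-likelihood adjusted p = 0.0219). In bulk samples, fewer cells of a type and less RNA per cell cannot be told apart.

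Some markers of other neural cells were high in LPS replicate 3, and others of the same lists were not. Gfap, an intermediate filament of astrocytes, had 1, 2 and 88 counts in LPS replicates 1, 2 and 3 and 0, 0 and 1 in LPS/siponimod replicates 1, 2 and 3. Olig1, a transcription factor of the oligodendrocyte lineage, had 1, 5 and 515 against 2, 3 and 17 counts. Mbp, a myelin protein gene, was by contrast lowest in LPS replicate 3 among the LPS libraries, with 149, 161 and 84 counts, and so were the astrocyte genes Aldh1l1 with 59, 21 and 7 counts and Slc1a3 with 1500, 775 and 574. Map2, a neuronal protein, had 0, 3 and 162 against 1, 1 and 115 counts. Summed over 8 markers of the oligodendrocyte lineage, with Mbp the most abundant, the level was 5.23, 5.27 and 28.4 CPM with LPS and 11.4, 10.2 and 20.6 CPM with LPS/siponimod. The 8 neuron markers, led by Tubb3 (called higher with the replicate block and without LPS replicate 3, quasi-likelihood adjusted p = 0.0316 and 0.0277), summed to 1.73, 1.06 and 11.5 against 6.41, 9.30 and 17.4 CPM. The 12 astrocyte markers, led by Slc1a3, which microglia can also express, summed to 48.5, 24.5 and 28.6 against 29.6, 29.0 and 61.3 CPM, with Gjb6 at 0 in every library. The part of these cells in the level of the 7 genes in LPS replicate 3 was not tested.

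With LPS/siponimod, the 4 CXC chemokines were far above LPS replicates 1 and 2, but only Cxcl3 was above LPS replicate 3 in all 3 libraries. Cxcl1 was at 63.6, 14.9 and 714 CPM in LPS replicates 1, 2 and 3 and at 665, 306 and 831 CPM in LPS/siponimod replicates 1, 2 and 3. The groups overlapped, since LPS replicate 3 exceeded LPS/siponimod replicates 1 and 2. Cxcl2 was at 117, 34.7 and 1091 CPM with LPS and at 1779, 866 and 1742 CPM with LPS/siponimod. Here LPS replicate 3 exceeded LPS/siponimod replicate 2 only. Cxcl3 was at 310, 48.2 and 912 CPM with LPS and at 4027, 1655 and 4594 CPM with LPS/siponimod, so that the groups did not overlap. Cxcl3 was the 1 gene of the 7 with this separation, against 25.3% of all genes tested with all LPS/siponimod values above all LPS values. Cxcl6 was scarce, with 2, 2 and 17 counts in the LPS and 42, 19 and 63 counts in the LPS/siponimod libraries. Its counts in LPS replicates 1 and 2 lay under a floor of 3 counts, and its level in LPS replicate 3 (0.457 CPM) was slightly above that in LPS/siponimod replicate 2 (0.426 CPM).

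Ccl20 and both colony-stimulating factors were ordered in the same way, with LPS replicates 1 and 2 below every LPS/siponimod library, as for all 7 genes and for 34.4% of all genes tested. Ccl20 had 6, 2 and 120 counts in the LPS and 102, 54 and 696 in the LPS/siponimod libraries. It was the 1 gene of the 7 for which LPS/siponimod replicate 3 was more than 4-fold above the other LPS/siponimod libraries, at 17.0 CPM against 2.19 and 1.21 CPM. Csf3 was at 5.72, 3.01 and 228 CPM with LPS and at 133, 54.6 and 338 CPM with LPS/siponimod. LPS replicate 3 thus held 39.9 times the Csf3 level of LPS replicate 1 and 75.8 times that of LPS replicate 2, and it exceeded LPS/siponimod replicates 1 and 2. Csf2 was at 0.540, 0.415 and 12.6 CPM with LPS and at 7.12, 4.91 and 10.9 CPM with LPS/siponimod. Its highest value belonged to LPS replicate 3, and it was the only gene of the 7 that was lower with LPS/siponimod in 1 of the 3 pairs of same-numbered libraries.

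**Figure D1:**
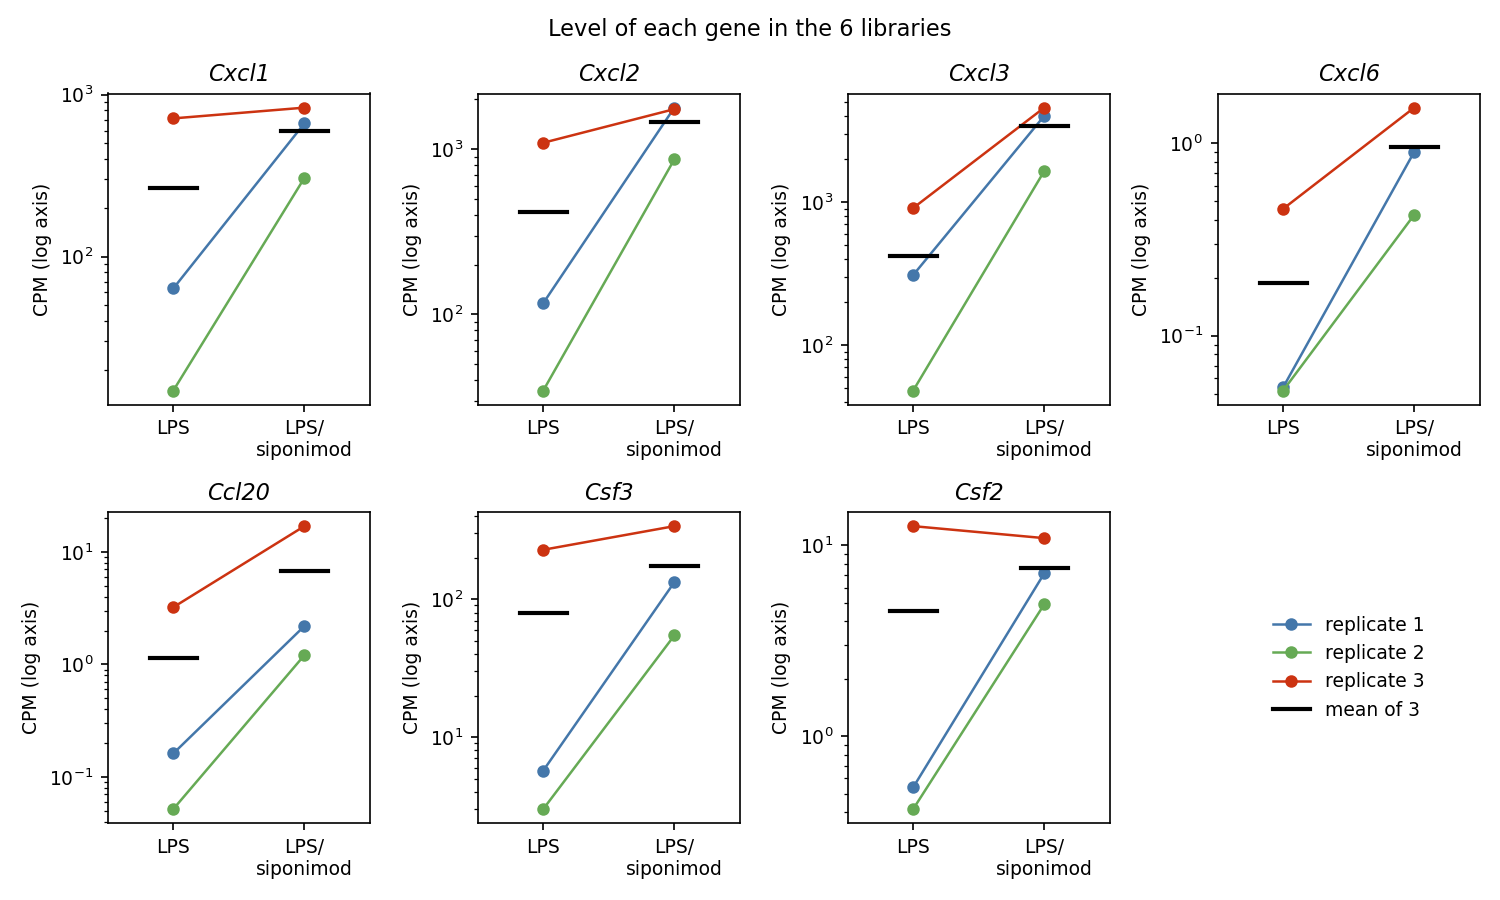
Level of each of the 7 genes in CPM (log axis, scaled separately for each gene) in 3 LPS and 3 LPS/siponimod libraries, with same-numbered libraries joined and black bars for the mean of 3. LPS replicates 1 and 2 lie below all LPS/siponimod libraries for each gene, whereas LPS replicate 3 lies among them or near them, and Csf2 is the gene whose line falls in replicate 3.

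To compare LPS/siponimod with LPS, the counts of all genes that passed a filter on low counts were fitted with edgeR's quasi-likelihood test. All 7 genes passed the filter. For Cxcl6 and Ccl20 the libraries that met its minimum were the 3 with LPS/siponimod and LPS replicate 3. Differentially expressed genes (DEGs) had to reach an adjusted p of 0.05 and differ 1.5-fold or more, which 13.6% of the 11977 genes tested did in the upward direction. None of the 7 was a DEG (0 called, 2 with an unadjusted p under 0.05, as had 43.7% of all genes tested). By the other tools run on the same 6 libraries, limma-voom also called 0, and DESeq2 and edgeR's likelihood ratio test called Cxcl3 only (13.8%, 16.5% and 15.3% of all genes tested were called up by voom, DESeq2 and the likelihood ratio test). On simulated counts with 200 changed genes, DESeq2 recovered 182 with 53 false calls, and the likelihood ratio test 184 with 43. The quasi-likelihood test recovered 145 with 8 false calls, and voom 139 with 6. The simulated counts held neither paired replicates nor a library standing apart, so that they cannot weigh the calls of Cxcl3. All 7 log2 fold changes (FC) were positive, with a median of 1.82 against -0.02 for all genes tested.

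The mean of Cxcl3 was 423 ± 443 CPM with LPS and 3425 ± 1559 CPM with LPS/siponimod (mean ± SD, n = 3 per group; log2 FC 3.02 ± 1.02 SE, quasi-likelihood adjusted p = 0.0707), the smallest p-value of the 7. For Cxcl6 the log2 FC was 2.33 ± 0.96 (SE, quasi-likelihood adjusted p = 0.113). Ccl20 was at 1.15 ± 1.80 against 6.79 ± 8.82 CPM (log2 FC 2.56 ± 1.62 SE, quasi-likelihood adjusted p = 0.267). For Cxcl2 and Cxcl1, the spread of the LPS libraries was larger than their mean, 414 ± 588 and 264 ± 390 CPM, against 1463 ± 517 and 601 ± 269 CPM with LPS/siponimod, and the log2 FCs were 1.82 ± 1.18 and 1.19 ± 1.27 (standard error, quasi-likelihood adjusted p = 0.278 and 0.507). Csf3 (log2 FC 1.15 ± 1.59 SE, quasi-likelihood adjusted p = 0.609) and Csf2 (0.76 ± 1.25 SE, adjusted p = 0.673) had standard errors larger than the difference itself. With 3 libraries against 3, an exact permutation test of a single gene cannot go below p = 0.10. The quasi-likelihood p-values rest instead on an assumed distribution, and they also draw on the variance of the other genes.

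Replicate numbers paired the libraries, since same-numbered libraries deviated together from their group means. In 6 of the 7 cases the gene was higher with LPS/siponimod in all 3 pairs, as were 35.4% of all genes tested, and the pairs differed in size. Cxcl1 was 10.5-fold, 20.6-fold and 1.17-fold higher in pairs 1, 2 and 3. Cxcl2 was 15.2-fold, 25.0-fold and 1.60-fold higher, and Cxcl3 13.0-fold, 34.3-fold and 5.04-fold. Csf3 was 23.2-fold, 18.1-fold and 1.48-fold higher. For Csf2 the folds were 13.2 and 11.8 in pairs 1 and 2, and in pair 3 the LPS/siponimod level was 0.865 of the LPS level. Differences in pair 3 were thus the smallest for each of these 5 genes.

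When the replicate number entered the fit as a block, 3 of the 7 were upregulated DEGs, against 17.7% of all genes tested, and these were Ccl20 (log2 FC 3.14 ± 0.43 SE, adjusted p = 0.00868), Cxcl3 (3.71 ± 0.61 SE, adjusted p = 0.0125) and Cxcl6 (2.62 ± 0.57 SE, adjusted p = 0.0236, all by the quasi-likelihood test). Ccl20 and Cxcl6 passed the filter through the LPS/siponimod libraries, in which they were high, with LPS replicate 3 the only LPS library to meet its minimum. Their calls therefore add nothing, which leaves the call of Cxcl3. Cxcl2 had an adjusted p of 0.0501, Csf3 of 0.055, Cxcl1 of 0.0743 and Csf2 of 0.122 in this fit.

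Without LPS replicate 3, all 7 genes were upregulated DEGs by the quasi-likelihood test, against 15.9% of the 12242 genes then tested. Cxcl6 and Ccl20 passed the filter in this fit only through the LPS/siponimod libraries, in which they were high, so that these 2 had to differ and their calls add nothing. For the other 5 the log2 FCs ranged from 3.94 for Cxcl1 (adjusted p = 0.0237) to 5.34 for Csf3 (adjusted p = 0.0185). This library was singled out for its high level of these same genes, so that a larger difference without it follows from the choice, and the values describe pairs 1 and 2 and LPS/siponimod replicate 3. With both libraries numbered 3 left out, an alternative chosen after the data were seen, the quasi-likelihood test called 5 of the 7 upregulated and left out Cxcl1 (log2 FC 3.63, adjusted p = 0.0503) and Cxcl3 (3.99, adjusted p = 0.0633), against 11.1% of the 12032 genes then tested. With the replicate block in addition, all 7 were, against 16.4%. In both of these fits Cxcl6 and Ccl20 again passed the filter only through the LPS/siponimod libraries, so that their calls add nothing.

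**Figure D2:**
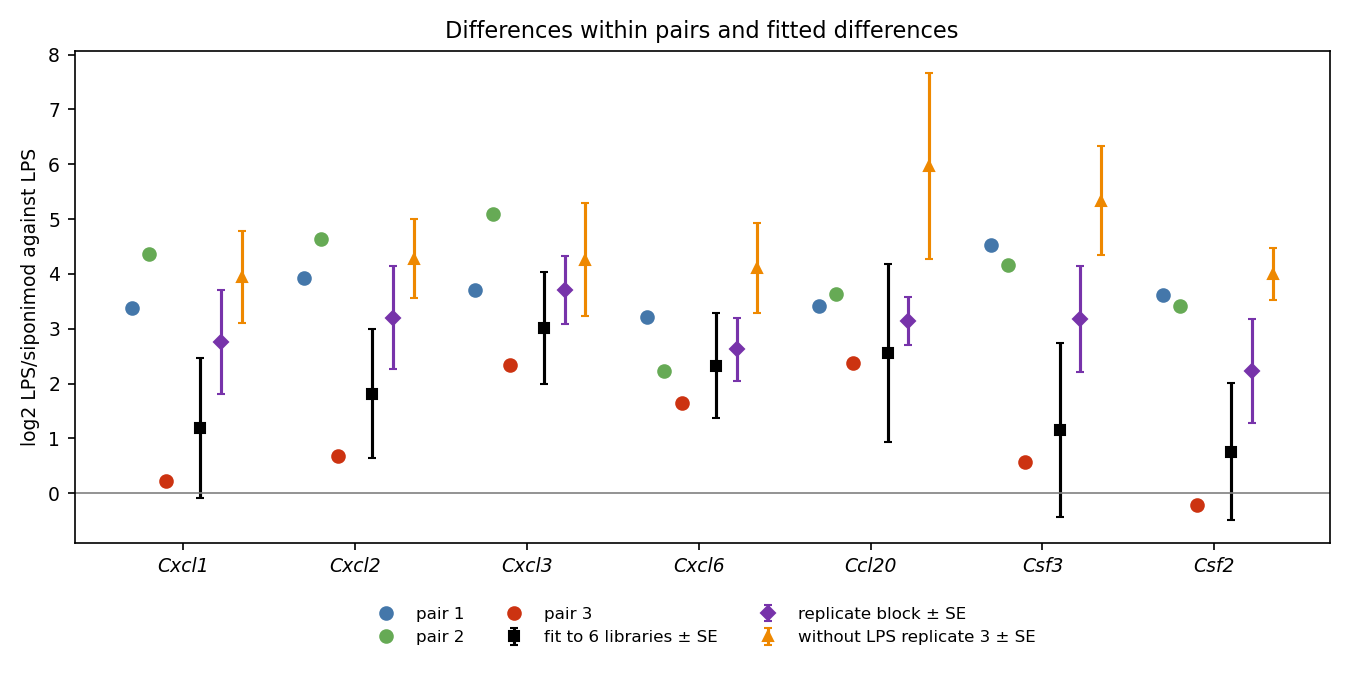
Log2 difference of LPS/siponimod against LPS for each of the 7 genes, as the difference within each pair of same-numbered libraries (circles, log2 CPM with a prior count of 2) and as fitted with its standard error to all 6 libraries (squares), with a replicate block (diamonds) and without LPS replicate 3 (triangles). Pair 3 gives the lowest circle for each gene and lies below 0 for Csf2.

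The high level in LPS replicate 3 was not the same for all 7 genes. On the log2 scale (CPM with a prior count of 2), the distance of LPS replicate 3 above the higher of the other LPS libraries was 5.31 for Csf3, 4.42 for Csf2, 3.96 for Ccl20, 3.49 for Cxcl1, 3.22 for Cxcl2, 2.30 for Cxcl6 and 1.56 for Cxcl3. Ranked among all genes tested by this distance, Csf3 was 15, Csf2 36, Ccl20 61, Cxcl1 91, Cxcl2 110, Cxcl6 213 and Cxcl3 378. All except Cxcl3, 6 of the 7, were thus among the 264 genes (2.2%) at least 4-fold above both, which is a description, since the library was named for these genes.

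**Figure D3:**
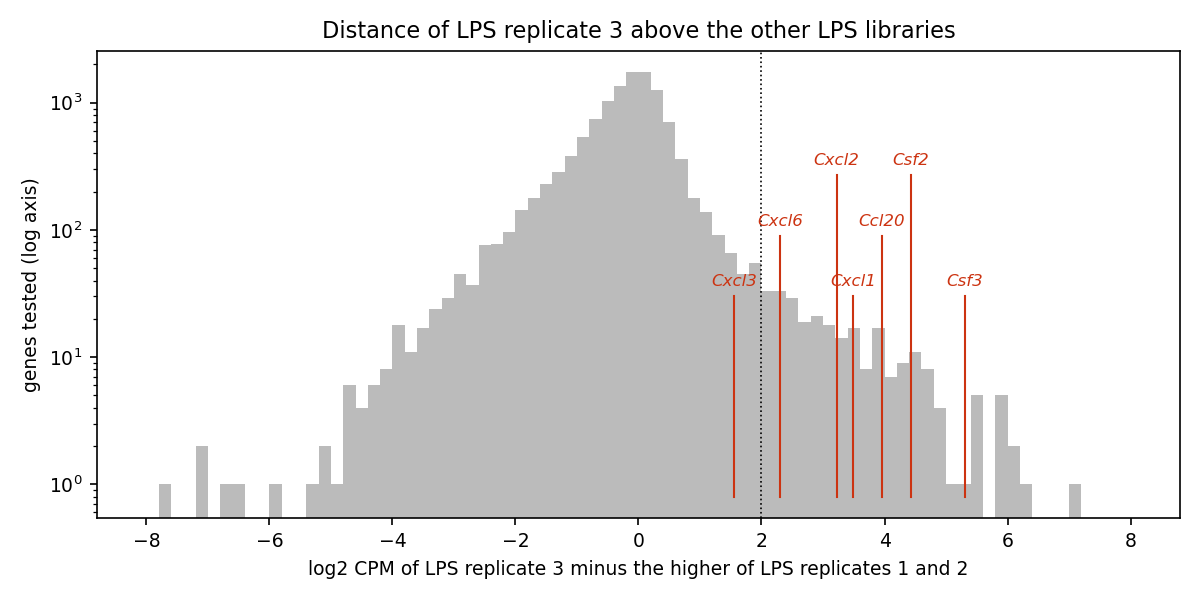
Number of genes tested (log axis) by the log2 distance of LPS replicate 3 above the higher of LPS replicates 1 and 2, with red lines for the 7 genes and a dotted line at a 4-fold distance. Cxcl3 lies to the left of the dotted line and the other 6 genes to its right, with Csf3 farthest out at 5.31.

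The proportions between the genes also differed in this library. These are ratios of raw counts, which can be compared between libraries but not read as relative amounts of message, since the genes differ in length. For every 100 counts of Cxcl1 there were 488, 324 and 128 counts of Cxcl3 in LPS replicates 1, 2 and 3 and 606, 541 and 552 in LPS/siponimod replicates 1, 2 and 3. The ratio in LPS replicate 3 was the lowest of the 6, and the LPS/siponimod libraries lay close to each other. For Cxcl2 the numbers were 184, 233 and 153 against 268, 283 and 210 per 100 counts of Cxcl1, so that LPS replicate 3 was again the lowest. For Csf3 they were 9.0, 20.2 and 32.0 against 20.0, 17.8 and 40.7, and both libraries numbered 3 were the highest of their group. Ccl20 had 0.255, 0.349 and 0.452 against 0.330, 0.395 and 2.04 counts per 100 of Cxcl1, with LPS/siponimod replicate 3 far above all others.

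Among receptors through which the 7 factors act, Csf2rb was the one called lower. Of 10 receptor genes (including scavenging receptors), 5 had enough counts to be tested, of which 1 rose and 1 fell (25.3% of all genes tested were called in either direction). Csf2rb, the signalling chain of the receptor for Csf2, fell from 293 ± 67.8 to 152 ± 13.4 CPM (mean ± SD, n = 3 per group; log2 FC -0.94 ± 0.20 SE, quasi-likelihood adjusted p = 0.0204), whereas Csf2ra, its ligand-binding chain, was at 507 ± 65.8 against 603 ± 65.4 CPM (adjusted p = 0.292, quasi-likelihood test). Csf3r, the receptor for Csf3, had 8698, 7800 and 2905 counts in the LPS and 1069, 2383 and 233 in the LPS/siponimod libraries (log2 FC -2.65 ± 0.83 SE, quasi-likelihood adjusted p = 0.057). Cxcr2, the receptor for the CXC ligands, had 294, 927 and 152 against 8, 77 and 1 counts (log2 FC -4.22 ± 1.37 SE, quasi-likelihood adjusted p = 0.0628). With the replicate block both were downregulated DEGs (Csf3r log2 FC -3.01, adjusted p = 0.00853, and Cxcr2 log2 FC -4.82, adjusted p = 0.00694, quasi-likelihood test), as they were without LPS replicate 3 (adjusted p = 0.0439 and 0.049). Ccrl2, a receptor of the chemokine family that binds chemerin without signalling, rose from 30.3 ± 16.2 to 98.9 ± 20.3 CPM (log2 FC 1.71 ± 0.40 SE, quasi-likelihood adjusted p = 0.0273). Cxcr1, another receptor for CXC ligands, had no count in the LPS and 103, 12 and 2 counts in the LPS/siponimod libraries, which lay above LPS without overlap but were too few to be tested with all 6 libraries. It was tested without LPS replicate 3, where it passed the filter only through the LPS/siponimod libraries, and was not called (adjusted p = 0.106, quasi-likelihood test). Ccr6, the receptor for Ccl20, had between 1 and 8 counts in each library and was not tested.

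Among ligands near the same receptor family, Ppbp had no count in any library and Pf4, which lies in the same cluster of genes, was at 270 ± 113 against 351 ± 104 CPM (log2 FC 0.38, adjusted p = 0.48, quasi-likelihood test). Cxcl17, a mucosal chemokine outside this receptor family, fell from 43.3 ± 13.3 to 9.04 ± 1.99 CPM (log2 FC -2.26 ± 0.28 SE, quasi-likelihood adjusted p = 0.00711). The other 3 symbols of this list were not found in the tables.

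Of 22 genes of interleukin-1, interleukin-17 and TNF signalling, 16 were tested, 1 rose and 3 fell, with a median log2 FC of -0.37, a share called near the 25.3% of all genes tested. Il1rn, the antagonist of the interleukin-1 receptor, was at 203, 147 and 45.3 CPM with LPS and at 4049, 1436 and 2168 CPM with LPS/siponimod (log2 FC 4.28 ± 0.70 SE, quasi-likelihood adjusted p = 0.0112), and here LPS replicate 3 was the lowest library. Il1a, by contrast, was at 170, 86.8 and 3925 CPM with LPS and at 813, 584 and 1459 CPM with LPS/siponimod. LPS replicate 3 exceeded all other libraries, pairs 1 and 2 were higher and pair 3 lower with LPS/siponimod (log2 FC -0.55 ± 1.35 SE, adjusted p = 0.78, quasi-likelihood test), and without that library Il1a was an upregulated DEG (log2 FC 2.90, adjusted p = 0.0193, quasi-likelihood test). Il1b was at 1392, 1394 and 5585 CPM with LPS and at 1041, 1215 and 1773 CPM with LPS/siponimod. The means were 2790.1 ± 2421 against 1343 ± 382 CPM (adjusted p = 0.229, quasi-likelihood test). Without LPS replicate 3 the log2 FC of Il1b was -0.05 (adjusted p = 0.91, quasi-likelihood test). Traf3ip2, the adaptor of the interleukin-17 receptor, Tnfrsf1b, a TNF receptor, and Il17ra fell (log2 FC -2.67, -1.14 and -0.61, adjusted p = 0.0241, 0.0291 and 0.0326, quasi-likelihood test). Il17a had no count in any library. Without LPS replicate 3, 17 genes of this list were tested and 5 rose and 4 fell, against 30.3% of all genes tested in that fit.

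In the list of transcription factors and their inhibitors, 24 genes were tested, 7 rose and 3 fell (median log2 FC 0.61), against 13.6% of all genes tested called up and 25.3% called in either direction. Without LPS replicate 3, 10 rose and 3 fell (30.3% of all genes were called in that fit), and with the replicate block 8 rose and 4 fell (34%). Jun and Fosl1, subunits of AP-1, rose (log2 FC 1.83 and 3.28, adjusted p = 0.00655 and 0.0217, quasi-likelihood test), as did Rela, the p65 subunit of NF-kB (0.80, adjusted p = 0.00886), and Nfkbib, which encodes an inhibitor of NF-kB (1.51, adjusted p = 0.00883). Fos, a further AP-1 subunit of the list, was not called (0.61, adjusted p = 0.551, quasi-likelihood test). The atypical IkB protein gene Bcl3 (-1.61, adjusted p = 0.0189), Tnip1, a partner of A20 (-0.87, adjusted p = 0.0275), and Nfkb2 (-0.66, adjusted p = 0.0301) fell by the quasi-likelihood test. Nfkbiz, the IkB-zeta gene whose product cooperates with NF-kB at Csf3, Lcn2 and related genes, had 15789, 15969 and 45134 counts in the LPS and 13870, 24357 and 16284 in the LPS/siponimod libraries (adjusted p = 0.291, quasi-likelihood test).

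Of 22 tested genes whose proteins set the lifetime of such messages, 2 rose and 2 fell, with a median log2 FC of -0.05, and 25.3% of all genes tested were called in either direction. Without LPS replicate 3, 3 rose and 3 fell, against 30.3% of all genes in that fit, and Zc3h12c was no longer called (adjusted p = 0.0599, quasi-likelihood test). With the replicate block 4 rose and 3 fell, against 34% of all genes. Rc3h1 (Roquin-1, 1.38, adjusted p = 0.00994) and Zc3h12c (a relative of Regnase-1, 0.77, adjusted p = 0.0404), both of which promote decay, rose, and Mapk14 (p38alpha, -1.24, adjusted p = 0.0312) and Arid5a, which stabilizes Il6 messages (-1.12, adjusted p = 0.0424), fell by the quasi-likelihood test. Zc3h12d, of the same family as Zc3h12c, went the other way, with 273, 608 and 89 against 2, 59 and 8 counts (log2 FC -4.02, adjusted p = 0.0558). Igf2bp2 of this list had 16, 10 and 82 against 250, 99 and 545 counts (2.85, adjusted p = 0.079). Neither was called with all 6 libraries. With the block, Zc3h12d fell and Igf2bp2 rose (adjusted p = 0.0116 and 0.00565), as without LPS replicate 3 (0.0382 and 0.025, all quasi-likelihood test). Zfp36 (tristetraprolin) was at 126 against 91.8 CPM (adjusted p = 0.30) and Zc3h12a (Regnase-1) at 206 against 135 CPM (adjusted p = 0.247, quasi-likelihood test).

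Genes of another list, set from general knowledge and named late LPS genes, moved in both directions. Their induction by LPS and its timing were not measured here. Of 16 tested, 2 rose and 2 fell, a share near the 25.3% of all genes tested. With the replicate block 5 rose and 4 fell, against 34% of all genes, with a median log2 FC of -0.52. The median was -1.16 with all 6 libraries unpaired and 0.78 without LPS replicate 3, where 5 rose and 1 fell (30.3% of all genes were called in that fit). Ptgs2, the inducible cyclooxygenase, had 1430, 1116 and 6935 counts in the LPS and 144018, 107198 and 253022 in the LPS/siponimod libraries (log2 FC 5.52, adjusted p = 0.0123), and Ereg, which encodes the growth factor epiregulin, 22, 18 and 328 against 2985, 2770 and 2962 (log2 FC 4.33, adjusted p = 0.0372, quasi-likelihood test). C3, the central complement component, and Slpi, a protease inhibitor, fell (log2 FC -1.74 and -1.45, adjusted p = 0.0211 and 0.0464, quasi-likelihood test), and Slpi was not called without LPS replicate 3 (adjusted p = 0.0784). Lcn2, the siderophore-binding protein of neutrophils and glia, had 36868, 40759 and 4697 against 16215, 16631 and 2580 counts (log2 FC -1.47, adjusted p = 0.265, quasi-likelihood test). It was lower with LPS/siponimod in all 3 pairs and a downregulated DEG with the replicate block (log2 FC -1.34, adjusted p = 0.00815, quasi-likelihood test), and both libraries numbered 3 were the lowest of their group. Il6 was at 14.7, 6.10 and 143 CPM with LPS and at 63.5, 35.5 and 83.8 CPM with LPS/siponimod, with pairs 1 and 2 higher and pair 3 lower (log2 FC 0.15, adjusted p = 0.928, quasi-likelihood test), and without LPS replicate 3 it was an upregulated DEG (log2 FC 2.56, adjusted p = 0.0241, quasi-likelihood test).

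**Figure D4:**
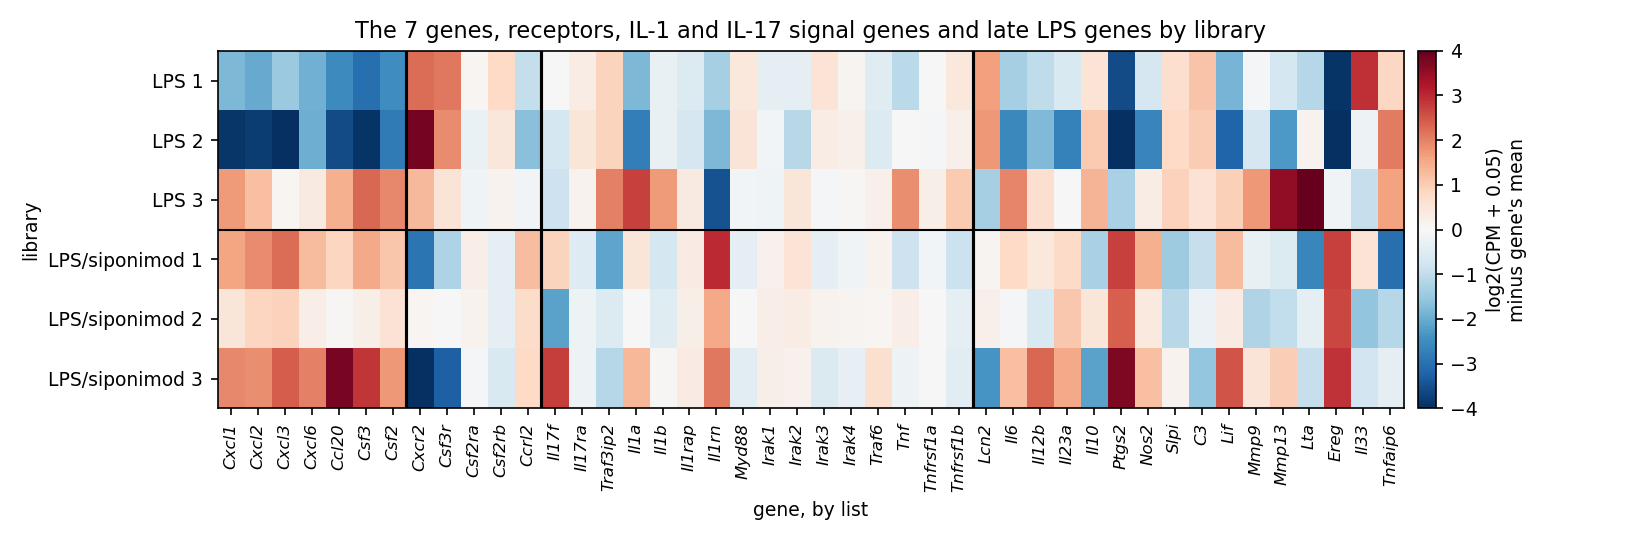
Level of each tested gene in each library as log2(CPM + 0.05) minus the mean of the gene over the 6 libraries (colours end at 4 below and above), with vertical lines between the 7 genes, receptors, interleukin and TNF signal genes and late LPS genes. The 7 genes are low in LPS replicates 1 and 2 and higher in the other 4 libraries, Cxcr2 and Csf3r are lowest in LPS/siponimod replicate 3, and Il1a and Lta are highest in LPS replicate 3.

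The genes whose level across the 6 libraries was most like the mean of the 7 (Pearson correlation of log2 CPM with the mean of their standardised values, a description over 6 libraries, some of which share a treatment or a replicate number) were Frk (0.996), Ckap2l (0.995), Rpl9_3 (0.995), Lif (0.995), a gene listed only by its Ensembl identifier (0.993), Phlda1 (0.993), Lhx4 (0.993), Orai2 (0.991), Ranbp17 (0.991) and Map2k3 (0.991). None of the 10 was a DEG with all 6 libraries. Lif, a cytokine of the interleukin-6 family that is also in the list of late LPS genes, had 56, 22 and 412 counts in the LPS and 628, 319 and 1332 in the LPS/siponimod libraries. As a member of that list it was called with the replicate block (log2 FC 2.69, adjusted p = 0.013) and without LPS replicate 3 (4.10, adjusted p = 0.0241, quasi-likelihood test), which repeats the likeness for which it is named here, and the other 9 genes are given for the fit to all 6 libraries only. Phlda1 had 566, 424 and 5409 against 8278, 3998 and 8672 counts. The 10 genes most raised in LPS replicate 3 were others, namely Scg2, Ptn, Dlk1, Zfp462, Gpm6b, Sparcl1, Maged1, Cemip, Ptprz1 and Chl1. Ptprz1, a phosphatase of astrocytes and oligodendrocyte precursors, had 12, 22 and 1302 counts in the LPS and 8, 29 and 373 in the LPS/siponimod libraries. Zfp462, a zinc finger gene, had 0, 0 and 117 against 108, 27 and 159 counts, so that these 10 did not share one pattern in LPS/siponimod replicates 1 and 2.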

How the data were processed

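Bulk mRNA of 6 libraries, 3 LPS and 3 LPS/siponimod, was analysed. Per the labels and the paper's methods, the authors converted reads with bcl2fastq (version 2.20.0.422), trimmed them, mapped single-end reads to the rat genome (mRatBN7.2) in the CLC Genomics Workbench, and deposited total counts per gene without normalization. The treatment of multi-mapped reads and of strand is not given in the sources used here, which makes values of similar genes uncertain. A nameless, empty line in 1 file was dropped (1 in all).

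From these, edgeR (version 4.0.16), limma (version 3.58.1) and DESeq2 (version 1.42.0) were run under R 4.3.3. Genes were kept by filterByExpr (minimum count 10, minimum total 15), which left 11977 of 23139, and scaled by TMM (factors 0.939 to 1.056). The main model had a single term for siponimod and was tested with glmQLFit and glmQLFTest, with Benjamini-Hochberg adjustment over all genes tested. The standard error is the log2 FC divided by the square root of the F statistic. CPM use TMM-scaled library sizes, and 3 counts correspond to between 0.0646 and 0.0809 CPM. This floor allows for counting error alone, because PCR copies of a molecule were not told apart.

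After centring on group means, same-numbered libraries correlated over genes at 0.42, 0.545 and 0.611 and others at -0.534 to 0.0856. On these values, and not on a statement in the labels, replicate numbers were taken as pairs. Alternatives were RLE scaling, DESeq2, limma-voom, the likelihood ratio test, a robust fit, no filter, a mean of at least 1 CPM, the replicate block and each library left out. The fits were tested on simulated counts with known changes, but without paired replicates or a library standing apart.

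The 7 genes and the lists were chosen with earlier results of these data known. Named are the 7 genes, from each list up to 3 DEGs per direction with the smallest adjusted p and up to 3 of the most abundant genes, and the 10 genes most like the 7 and most raised in LPS replicate 3. Outside this rule, chosen after their values were seen, are Cxcr1, Cxcr2, Ccr6, Aldh1l1, Ppbp, Il17a, Il6, Lcn2, Lta, Fos, Fosl1, Zfp36, Zc3h12a, Zc3h12d, Igf2bp2, Gfap, Map2, Olig1, Gjb6, Col1a1, Kdr, Emcn, Cd3e, Cd3g and the neutrophil markers without counts. Some genes that the abundance part of the rule selects are counted with their lists and not described singly.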

Additional observations from a re-analysis of the deposited data

How the results depend on the processing

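Over the 8 alternatives and 6 fits without a library that were planned, and 2 added after the data were seen, every log2 FC of the 7 genes stayed positive, but the sizes moved widely. Without LPS/siponimod replicate 3, Ccl20 went from 2.56 to 0.57 and Csf3 from 1.15 to 0.25, without LPS replicate 2 Cxcl1 went from 1.19 to 0.66 and Csf2 from 0.76 to 0.25, and with limma-voom Csf3 was 3.11, Csf2 2.34 and Cxcl1 2.66. The number of the 7 called was 0 with all 6 libraries in the main quasi-likelihood fit, and it was 1 with DESeq2 (which gave no adjusted p for Cxcl2) and with the likelihood ratio test. It was 3 with the replicate block, 5 with both libraries numbered 3 left out and 7 with the replicate block and both left out. It ranged from 0 to 7 with single libraries left out, being 7 without LPS replicate 3 and 0 without any of the other 5. The counts of 3, 5 and 7 include Cxcl6 and Ccl20, whose calls add nothing. These genes passed the filter only through the LPS/siponimod libraries, with LPS replicate 3, where kept, the only LPS library to meet its minimum. The number of DEGs among all genes was 3036 and, with single libraries left out, ranged from 651 (without LPS replicate 2) to 3713 (without LPS replicate 3), with 783 without LPS/siponimod replicate 1, 1035 without LPS/siponimod replicate 3 and 1743 without LPS replicate 1, the cause of which was not tested. With all 6 libraries it ranged from 2542 without a filter to 4074 with the block, and with both libraries numbered 3 left out it was 2318 without and 3800 with the block. Cxcl6 could not be fitted with a mean of at least 1 CPM. At this depth Cxcl6 in LPS replicates 1 and 2 and Ccl20 in LPS replicate 2 rest on 2 counts, and fitted log2 FCs of these genes depend on those counts.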

Other observations

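Of markers of cells other than microglia, single genes were called, and their counts are read against the 25.3% of all genes tested that were called in either direction. Dcn, which encodes the matrix proteoglycan decorin, had 3, 0 and 4 counts in LPS replicates 1, 2 and 3 and 456, 49 and 178 in LPS/siponimod replicates 1, 2 and 3 (log2 FC 6.28, edgeR quasi-likelihood adjusted p = 0.0155), and was the 1 gene called among 8 tested fibroblast and pericyte markers. It passed the filter only through the LPS/siponimod libraries, in which it was high, so that its call adds nothing. The collagen gene Col1a1 of this list was at 2.81 ± 0.361 against 1.52 ± 0.290 CPM (SD, n = 3 each) and was called lower without LPS replicate 3 (quasi-likelihood adjusted p = 0.0473). The summed level of the fibroblast and pericyte markers, led by Fn1, was 13.3, 13.6 and 19.1 against 19.8, 20.3 and 32.0 CPM. Mbp, a myelin protein gene, rose from 3.49 ± 1.07 to 11.6 ± 3.73 CPM (log2 FC 1.74, quasi-likelihood adjusted p = 0.0172), and Snap25, a synaptic fusion protein gene, had 0, 1 and 1 against 94, 153 and 81 counts (quasi-likelihood adjusted p = 0.00539). Snap25 likewise passed the filter only through the LPS/siponimod libraries, in which it was high, so that its call adds nothing. Of 5 tested endothelial markers, Flt1, a VEGF receptor, fell (log2 FC -2.06, quasi-likelihood adjusted p = 0.00913), while Kdr and Emcn had no count in any library. With the replicate block 3 of the 5 fell, with Pecam1 (-2.40, adjusted p = 0.00966) and Cdh5 (-1.48, adjusted p = 0.0142) added, against 34% of all genes, and without LPS replicate 3 Flt1 and Pecam1 (adjusted p = 0.0471, quasi-likelihood test) fell, against 30.3%. Aldoc was the 1 gene called among 4 tested astrocyte markers, a share near that of all genes, and fell (log2 FC -1.12, quasi-likelihood adjusted p = 0.0401). Of the T and B cell markers only Cd8a was tested (1.60 ± 1.02 against 0.905 ± 0.208 CPM, quasi-likelihood adjusted p = 0.285), and Cd3e and Cd3g had no count.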
